A study of Homo sapiens with 6 samples.

Results

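The mRNAs of GNB2 and related heterotrimeric G protein subunits were followed through a pulldown of RNA on the FERRY complex. The 10 genes described are the beta subunits GNB1, GNB2 and GNB4, the alpha subunits GNAI2, GNAI3, GNAS and GNA11, the gamma subunits GNG5 and GNG10, and RACK1, a relative of the beta subunits. They were listed by symbol out of 60676 Ensembl gene IDs in the count table, and 9 of the 10 passed the filter on low counts (GNG10 did not). The list was chosen by earlier fold changes and calls of GST-Ferry against GST in these same libraries, so the differences between the baits are a description for the 10 genes. Where edgeR called one of them, the call repeats values behind the choice and is no independent test.

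Recombinant GST alone, or the GST-Ferry complex, was bound to glutathione resin and incubated with lysate of suspension-grown HEK 293 cells, a long-established line of human embryonic kidney origin. FERRY binds RAB5, a GTPase of early endosomes, and has 5 subunits (PPP1R21, TBCK, GATD1, CRYZL1 and C12orf4). Each bait gave 3 libraries, and both baits shared the cell line, the lysate preparation, the depletion of ribosomal RNA and the strand-specific library kit. The labels name no separate cultures, so any p-value reflects the spread between these samples alone, which may be technical. Column headers name the libraries as control or sample with a number, and it was assumed that control means GST, that sample means GST-Ferry and that the numbers match.

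A heterotrimeric G protein couples receptors in the cell membrane to enzymes and channels inside the cell. Its alpha subunit binds GTP when a receptor is activated and separates from the paired beta and gamma subunits, and both parts then act on effectors until the alpha subunit hydrolyses the GTP. RACK1 has the same propeller fold as the beta subunits but sits on the small ribosomal subunit, and its mRNA is grouped here with those of the ribosomal proteins.

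Library totals were 9388865, 10466520 and 7390346 counts on GST and 6532665, 2671831 and 2454538 on GST-Ferry, so that a floor of 3 counts lay between 0.287 and 1.22 CPM (counts scaled by the library total), counting error only. GST 3 stood apart from GST 1 and GST 2 (chi-square per degree of freedom 59.7 and 55.8, against 13.02 between GST 1 and GST 2). By the same measure GST-Ferry 1 differed more from GST-Ferry 2 and 3 (16.2 and 24.3, against 4.15). The measure grows with library depth. It also took in the bait subunit genes, whose counts differed widely between the GST-Ferry libraries, and their part in these values was not computed. Counts of the bait subunit genes PPP1R21, C12orf4 and TBCK were called higher on GST-Ferry (log2 fold changes of 8.83, 6.73 and 5.30), while CRYZL1 at -0.50 and GATD1 at 0.12 were not called. In GST-Ferry 1, 2 and 3 PPP1R21 had 835, 17208 and 35240 CPM, C12orf4 had 832, 6060 and 11321 CPM and TBCK had 645, 3785 and 6703 CPM. The source of these reads was not tested. Without GST-Ferry 2 no gene in the table was called. The HEK 293 markers VIM, KRT8, KRT18, NES, NEFM and PAX2 were all detected, and of these KRT18 was called higher on GST-Ferry (log2 fold change 1.18), a call lost without GST 2, GST-Ferry 2 or GST-Ferry 3 and with RLE size factors, library sizes alone or limma-voom. Of the markers of other cell types, HBB and CD3E had 0 counts in every library, PTPRC, ALB and MYH7 had at most 4 counts in any library, and INS had 0 to 38. A gene is called when its adjusted p is under 0.05 in the quasi-likelihood test of edgeR, Benjamini-Hochberg adjusted over 15546 genes. Values are relative to each library's total, and no library of the input lysate was analysed here, so that the amount of an mRNA in the lysate and its binding to the resin cannot be told apart.

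GNB2 had the highest fold change of the 10 genes and was the one that edgeR called. DESeq2 called GNB2 and also GNB1, GNAS and GNA11, all higher, beside 524 higher and 177 lower of all 15546 tested genes. Of the 9 tested genes, 1 was called higher, beside 0.592% of all tested genes called higher, 0.0322% called lower and 0.624% called in either direction. All 9 fold changes were above 0, beside 47.8% of all tested genes, and in 6 of the 9 (GNB1, GNB2, RACK1, GNAI2, GNAS and GNA11) the GST-Ferry libraries lay above every GST library, beside 14.9% of all tested genes (27.1% had no overlap in either direction). The median log2 fold change of the 9 was 0.67, beside -0.027 over all tested genes. Since the genes were proposed from this contrast, nothing is read from these counts.

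**Figure D1:**
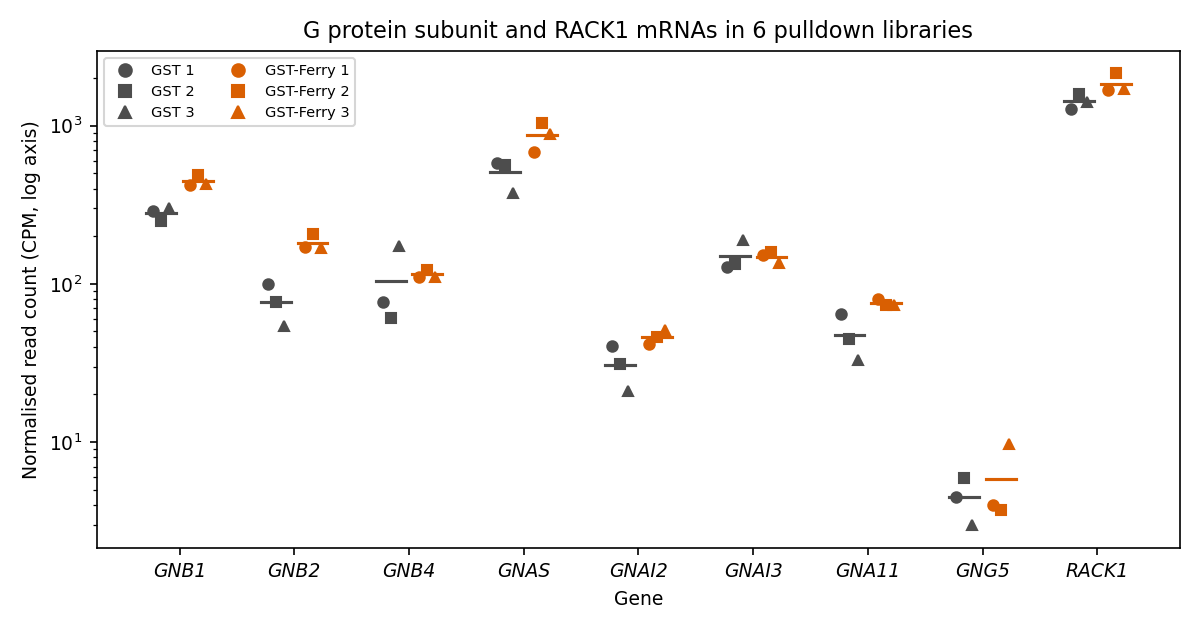
Normalised read counts (CPM, log axis) of the 9 tested genes in each library, on GST in grey, GST-Ferry in orange, a symbol for each replicate number and a bar at each group's mean. GNB2 lies at 54.4 to 99.2 CPM on GST and at 167 to 208 CPM on GST-Ferry, while the GNB4 and GNAI3 groups overlap, on GST 3 the highest library of each. The GNG5 groups overlap too, at 2.98 to 5.92 CPM on GST and 3.74 to 9.78 CPM on GST-Ferry, with GST 3 the lowest library.

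The beta subunits are propeller-shaped partners of the gamma subunits and belong to one family of related proteins. The first 120 coding bases of the 3 genes, taken from the GENCODE 29 transcripts, are shown because the paralogs are told apart by such differences in read mapping and because their base composition is used below. Capitals mark the bases that are unlike GNB2 at the same position.

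GNB2: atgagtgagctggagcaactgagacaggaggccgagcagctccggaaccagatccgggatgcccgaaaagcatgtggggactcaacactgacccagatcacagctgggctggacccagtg
GNB1: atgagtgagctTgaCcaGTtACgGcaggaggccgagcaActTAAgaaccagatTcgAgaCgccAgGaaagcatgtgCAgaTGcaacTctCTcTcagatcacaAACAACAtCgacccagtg
GNB4: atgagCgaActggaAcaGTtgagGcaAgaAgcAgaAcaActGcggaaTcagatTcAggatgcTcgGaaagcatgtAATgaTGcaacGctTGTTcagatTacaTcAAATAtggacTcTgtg

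In this stretch GNB1 had 32 bases and GNB4 had 36 bases unlike GNB2. Over the whole coding sequence, 1023 bases in each gene, identity to GNB2 was 79.4% for GNB1 and 72.7% for GNB4. The longest run of identical bases was 44 for GNB2 with GNB1 and 17 for GNB2 with GNB4. GC content of the coding sequence was 60.9% in GNB2, 56.0% in GNB1 and 44.5% in GNB4, and at the third codon position it was 79.5%, 67.4% and 38.7%.

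GNB2 encodes a widely expressed beta subunit and lies on chromosome 7 (100673531 to 100679174, plus strand, GRCh38 as annotated in GENCODE 29). It had 99.2, 76.3 and 54.4 CPM in GST 1, 2 and 3 and 170, 208 and 167 CPM in GST-Ferry 1, 2 and 3. The lowest GST-Ferry library lay well above the highest GST library, GST 1. The means were 76.6 ± 22.4 CPM on GST and 182 ± 22.5 CPM on GST-Ferry (SD, n = 3 each), a log2 fold change of 1.33 ± 0.22 (SE), or 2.52-fold. The fold change was above 0 in all 16 alternative fits, from 0.94 to 1.48 on the log2 scale, and GNB2 was called in 11 of them. The call was lost without GST 2 (1.30), without GST-Ferry 2 (1.16) and without GST-Ferry 3 (1.34), and with RLE size factors (1.32) or library sizes alone (1.24).

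GNB1, which encodes another widely expressed beta subunit, lies on chromosome 1 (1785285 to 1891117, minus strand). It had 289, 249 and 301 CPM on GST and 423, 491 and 429 CPM on GST-Ferry. Again the groups did not overlap, and GST 3 was here the highest GST library, where it was the lowest for GNB2. The mean was 279.7 ± 27.4 CPM on GST and 448 ± 37.4 CPM on GST-Ferry, a log2 fold change of 0.74 ± 0.20 (SE) that was not called. Without GST 3 it was 0.854 and was called.

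GNB4, a further beta subunit gene on chromosome 3 (179396089 to 179451590, minus strand), had 76.7, 60.5 and 173 CPM on GST and 111, 122 and 111 CPM on GST-Ferry. GST 1 and GST 2 lay below all GST-Ferry libraries and GST 3 lay above them, so the groups overlapped. The means were 103 ± 60.9 and 115 ± 6.04 CPM, a log2 fold change of 0.17 ± 0.36 (SE). That value turned on single libraries. It was 0.855 and called without GST 3, -0.08 without GST 1 and -0.15 without GST 2.

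Within the pool of beta subunit counts GST 3 stood apart from the other libraries for GNB2 and GNB4. GNB2 took 19.4%, 18.4% and 9.78% of all beta subunit counts in GST 1, 2 and 3 and 22.8%, 24.2% and 22.7% in the GST-Ferry libraries. GNB4 took 15.01%, 14.6% and 31.1% on GST and 14.9%, 14.2% and 15.1% on GST-Ferry. GNB1 stayed between 54.1% and 60.1% in all 6 libraries. Shares of counts also scale with transcript length, so they are compared for one gene across libraries only. All beta subunit counts together made up 494 ± 72.6 CPM on GST and 781 ± 67.4 CPM on GST-Ferry.

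**Figure D2:**
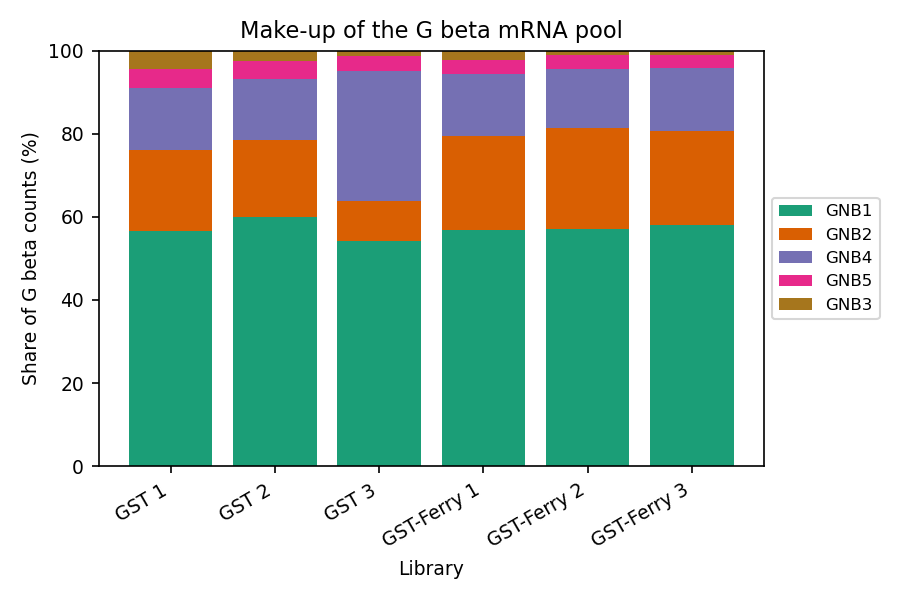
Share of each beta subunit gene in all beta subunit counts (%, stacked to 100) in each of the 6 libraries. GNB2 takes 9.78% in GST 3 and 18.4% to 24.2% in the other libraries, and GNB4 takes 31.1% in GST 3 and 14.2% to 15.1% in the other libraries.

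Among the alpha subunits, GNAS had the highest fold change. GNAS encodes the stimulatory alpha subunit, which activates adenylyl cyclase, and lies on chromosome 20 (58839718 to 58911192, plus strand) in a locus with several alternative first exons. It had 583, 565 and 373 CPM on GST and 686, 1032 and 884 CPM on GST-Ferry. The groups did not overlap, and GST 3 was the lowest library. The means were 507 ± 116 and 867 ± 174 CPM, a log2 fold change of 0.87 ± 0.23 (SE) that was not called. GNAS took 51.4%, 54.3% and 38.3% of alpha subunit counts on GST and 52.7%, 63.1% and 60.3% on GST-Ferry.

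GNA11, on chromosome 19 (3094410 to 3124004, plus strand), encodes an alpha subunit that activates phospholipase C beta. It had 64.9, 44.8 and 33.02 CPM on GST and 80.1, 73.4 and 73.7 CPM on GST-Ferry, without overlap and on GST 3 lowest. The log2 fold change was 0.75 ± 0.22 (SE) and was not called.

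GNAI2 and GNAI3 encode inhibitory alpha subunits, which lower adenylyl cyclase activity, and they differed in their pattern. GNAI2, on chromosome 3 (50226292 to 50259355, plus strand), had 40.4, 31.1 and 21.1 CPM on GST and 41.9, 46.4 and 50.9 CPM on GST-Ferry. The groups did not overlap, although GST 1 and GST-Ferry 1 lay close together. Its log2 fold change was 0.67 ± 0.23 (SE). GNAI3, on chromosome 1 (109548611 to 109618321, plus strand), had 128, 133 and 190 CPM on GST and 151, 159 and 135 CPM on GST-Ferry. Its groups overlapped, on GST 3 the highest of all libraries. The log2 fold change was 0.02 ± 0.23 (SE), and it moved to 0.297 without GST 3 and to -0.14 without GST 1, -0.10 without GST 2 and -0.10 without GST-Ferry 2. Neither gene was called.

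Both gamma subunit genes had few counts. GNG5, on chromosome 1 (84498325 to 84506565, minus strand), encodes a gamma subunit that anchors the beta subunit to membranes through a lipid tail. It had 42, 62 and 22 counts on GST and 26, 10 and 24 counts on GST-Ferry, which correspond to 4.47, 5.92 and 2.98 CPM and to 3.98, 3.74 and 9.78 CPM. GST-Ferry 3 was the highest library, and GST-Ferry 1 and 2 lay within the GST range. The log2 fold change was 0.40 ± 0.44 (SE), was not called, and was -0.20 without GST-Ferry 3. GNG10, a gamma subunit gene on chromosome 9 (111661335 to 111670246, plus strand), had 2, 0 and 2 counts on GST and 0, 1 and 1 counts on GST-Ferry, all at or below the floor of 3 counts, and gets no fold change.

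Annotation overlap touched both of these counts. Exons of another gene on the same strand covered 73.1% of the exonic bases of GNG10 and 30.9% of those of GNG5, against at most 3.0% for the other 8 genes. Exons on the opposite strand covered 27.6% of GNB4, 14.8% of GNA11, 10.7% of GNG5 and at most 8.7% of the others. The strand setting of the counting is not given, so whether such overlap touched the counts is not known. Over the genome, 1219 of 19915 protein-coding genes were covered by 30% or more on the same strand. The readthrough gene DNAJC25-GNG10, which overlaps GNG10, had 0 counts in every library, and DNAJC25, which lies upstream of GNG10, had 117, 111 and 98 counts on GST and 63, 22 and 6 on GST-Ferry. The coding sequence of GNG5 was 94.2% identical to the pseudogene GNG5P3 and that of GNG10 was 88.4% identical to GNG10P1, and the annotated pseudogenes of both genes had 0 counts in every library. How reads with several matches or in overlapping exons were counted is not given in the sources used here. The low values of GNG5 and GNG10 are therefore uncertain as levels of their mRNAs.

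RACK1, on chromosome 5 (181236909 to 181248096, minus strand), had 1266, 1581 and 1419 CPM on GST and 1684, 2141 and 1693 CPM on GST-Ferry. The groups did not overlap, and GST-Ferry 2 was the highest library. The means were 1422 ± 157 and 1839 ± 262 CPM, a log2 fold change of 0.44 ± 0.23 (SE) that was not called. Its pseudogene RACK1P1, 86.9% identical to the coding sequence, had 28 counts over all libraries, and the small nucleolar RNAs SNORD95 and SNORD96A, which lie within RACK1 introns, had 0 counts in every library.

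Among the mRNAs of the ribosome RACK1 lay near the top. RACK1 is on the list chosen by earlier fold changes in these same libraries, while the ribosomal proteins are a whole family. Its place among them and the ratio below are therefore descriptions and no test. Of the 79 cytosolic ribosomal proteins, all tested, 25 had a fold change above 0 and the median log2 fold change was -0.17. None was called by edgeR or limma-voom, and 1 was called lower by DESeq2, which called 177 of all 15546 tested genes lower. Of the 79, 10 had an unadjusted p under 0.05 in edgeR. Of these, 3 were higher and 7 lower on GST-Ferry, beside 11.3% higher and 8.05% lower over all tested genes. Fold changes above that of RACK1 were found for 4 of the 79, RPL3 (0.58), FAU (0.56), RPS9 (0.48) and RPL13 (0.46), which were named after their values were seen. For every 100 counts of ribosomal protein mRNAs, RACK1 had 3.19, 2.86 and 2.56 counts on GST and 4.31, 4.24 and 3.85 on GST-Ferry, without overlap. RPS4X, with the highest mean CPM of the ribosomal protein mRNAs, had 2649 ± 777 CPM on GST and 2210 ± 233 CPM on GST-Ferry.

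Many ribosomal protein mRNAs begin with a C followed by a run of pyrimidines, a feature through which their translation is controlled. The start of RACK1 is shown for this reason, from chr5:181243887-181243916 on the minus strand of GRCh38.p14 (RefSeq), with the motif CTTTT in capitals.

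RACK1 start: gCTTTTctctctctctttcactgcaaggcg

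The motif began 9 bases before the annotated RefSeq start. Searched on the transcribed strand only, CTTTT lay between 10 bases before the start and base 10 in 2.62% of 35116 RefSeq start windows and in 14 of 78 windows of ribosomal protein genes (17.9%). This search range was widened after the RACK1 sequence had been seen. From 5 bases before the start to base 10, RACK1 had no match, 1.72% of all windows had one and 13 of the 78 (16.7%) had one. CTTTT is narrower than a C with a run of pyrimidines, so a missing match does not mean that this feature is missing. In the printed stretch the annotated start of RACK1 itself falls on a c, and only pyrimidines follow it up to the first a. None of the other 9 genes had a match in either range. A match is a description of the letters and was not tied to the counts.

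The levels of the genes in the GST libraries can be ordered only per length. Per kilobase of union exons, RACK1 stood highest at 237 CPM, followed by GNB1 at 43.6 ± 4.27, GNAS at 38.1 ± 8.73, GNB2 at 26.8 ± 7.84 and GNB4 at 14.7 ± 8.66 (SD, n = 3). Then came GNA11 at 7.62 ± 2.58, GNAI3 at 5.53 ± 1.26, GNAI2 at 4.04 ± 1.26, GNG5 at 4.01 ± 1.33 and GNG10 at 0.108 ± 0.0956. The places of GNG5 and GNG10 are uncertain because of the overlapping exons and pseudogenes described above, and GNG10 rests on 2, 0 and 2 counts. Apart from RACK1 and GNG10, each neighbour in this order overlapped the next over the 3 libraries. The order depended on the length used. Per kilobase of the representative transcript GNAS had 257 CPM and GNB1 had 88.9, while GNAI3, whose annotated transcript spans 27174 bases, stayed at 5.53.

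The fold changes of the 9 tested genes tended to be higher at higher GC content of the transcript. GNAI3 (41.8% GC) and GNB4 (39.0%) had the smallest log2 fold changes, 0.02 and 0.17, and GNB2 (64.4%) had the largest. GNG5 (54.2%) and RACK1 (53.9%) lay at 0.40 and 0.44, and GNAI2 (59.3%), GNA11 (62.8%) and GNAS (57.9%) at 0.67, 0.75 and 0.87. The order was not strict. GNB1 (50.9%) had 0.74 at a lower GC content than all of these 5. GNAS also lay above GNAI2 and GNA11, GNB4 above GNAI3 and RACK1 above GNG5, each at a lower GC content. Across these 9 genes, which share the same 6 libraries, Pearson's r of log2 fold change with GC content was 0.85. It was 0.77 over the 24 genes made up of all tested subunits and RACK1, and 0.49 over the 15437 tested genes with a GC value, so the relation was not confined to G proteins. Genes are not independent replicates, and these values are descriptions.

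GST 3 departed from GST 1 and GST 2 along the same axis. On the log2 scale, GST 3 lay 1.56 above the mean of the other GST libraries for GNB4, 0.76 above it for GNAI3, 0.39 for GNB1 and 0.23 for RACK1. It lay below them for GNAS (-0.40), GNB2 (-0.45), GNA11 (-0.48), GNAI2 (-0.52) and GNG5 (-0.53). The value of GNB4 was at percentile 99.2 of all tested genes. Pearson's r of this departure with GC content was -0.92 over the 9 genes and -0.67 over all tested genes with a GC value. Over the 24 genes made up of all tested subunits and RACK1 it was -0.61. GST 3 is also part of the GST side of every fold change as fitted, so both relations with GC content share that library.

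**Figure D3:**
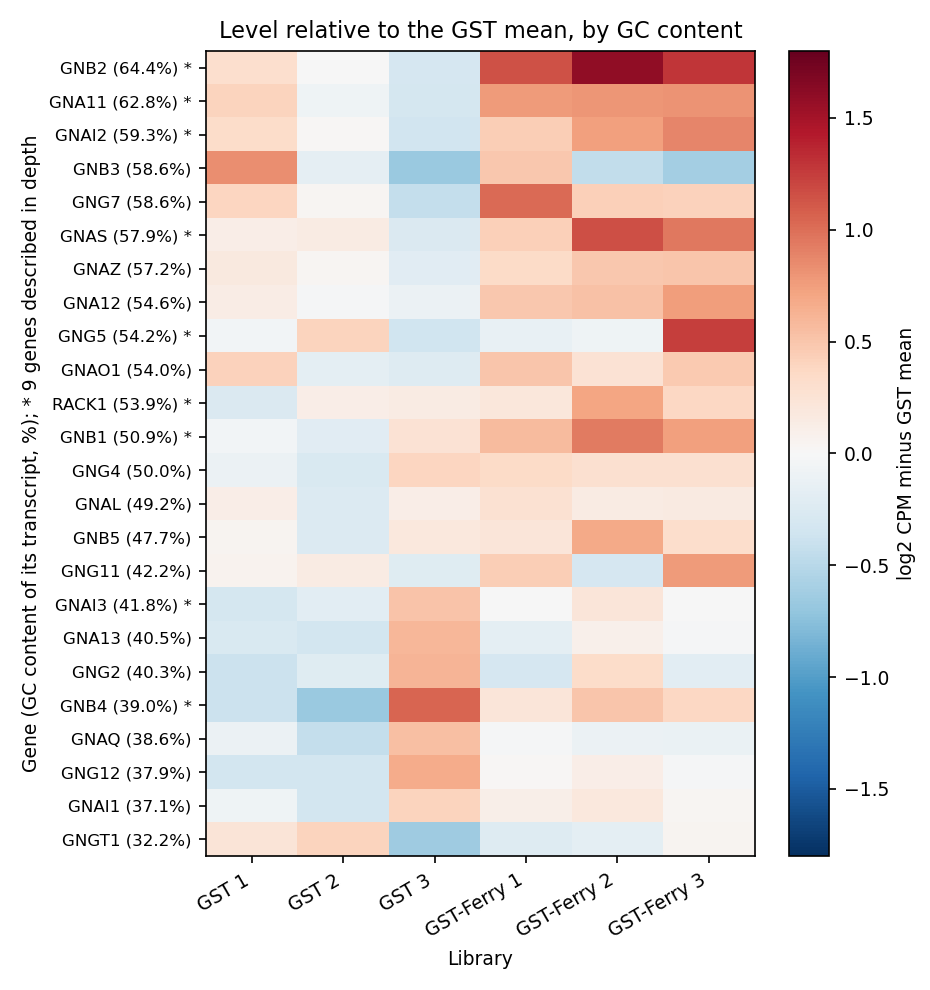
Level of each tested subunit gene and RACK1 in each library, as log2 CPM minus the gene's mean over the GST libraries (colour), with genes ordered by the GC content of their transcript and an asterisk on the 9 genes described in depth. In the GST 3 column the low-GC genes GNB4 and GNAI3 are above their mean and GNB2, GNA11 and GNAI2 are below it. Not all low-GC genes are above their mean there. GNGT1, with the lowest GC content (32.2%), is at -0.63 and GNG11 (42.2%) is at -0.21.

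When offsets for the length and GC content of transcripts were added to the fit, or when GST 3 was left out, the fold changes of the 9 genes covered a narrower range. They spanned 0.02 to 1.33 on the log2 scale as fitted, 0.29 to 0.95 with the offsets and 0.17 to 1.17 without GST 3. Over the 24 genes made up of all tested subunits and RACK1 the range was 1.56 as fitted, 1.31 with the offsets and 1.68 without GST 3, so it was not narrower there without GST 3. GNB2 was at 0.946 ± 0.18 (SE) with the offsets and 1.17 ± 0.18 without GST 3, values that rest on the counts by which it was chosen. With the offsets GNB4 was at 0.565 and GNAI3 at 0.344, GNAS was at 0.626, GNA11 at 0.409 and GNAI2 at 0.402. Pearson's r with GC content was then 0.27 with the offsets and 0.21 without GST 3 over the 9 genes, and 0.17 and 0.39 over the 24. The offsets are each library's own fitted trend with GC content and length, so a weaker relation with GC content under them follows from the adjustment.

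**Figure D4:**
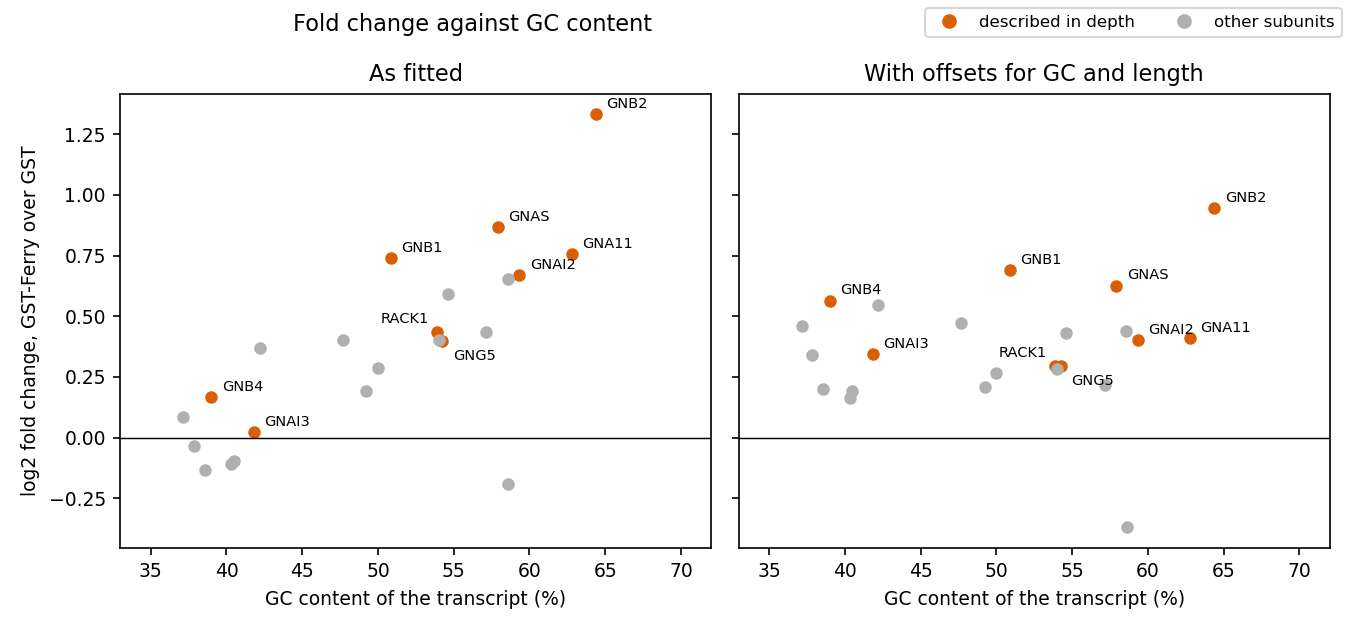
log2 fold change of GST-Ferry over GST against the GC content of the transcript (%), as fitted (left) and with offsets for GC and length (right), with the 9 genes described in depth in orange and the other tested subunit genes except GNGT1 in grey. GNGT1 (32.2% GC) lies outside the plotted range, at -0.22 as fitted and 0.17 with the offsets. The orange points tend upward with GC content on the left, from GNAI3 at 0.02 to GNB2 at 1.33, and lie between 0.29 and 0.95 on the right. The offsets take out each library's trend with GC content, so a flatter relation on the right follows from the adjustment.

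None of the other subunit genes was called by edgeR, DESeq2 or limma-voom. Of the 15 tested, 2 had an unadjusted p under 0.05 in edgeR, both higher on GST-Ferry, beside 11.3% higher and 8.05% lower over all tested genes. Of 12 other alpha subunit genes 7 were tested, 5 had a fold change above 0 and the median log2 fold change was 0.19. GNA13, with the highest mean CPM of them, had 115.5 ± 33.6 CPM on GST and 105 ± 5.14 CPM on GST-Ferry. Both other beta subunit genes were tested. GNB5, the partner of a class of RGS proteins, had 20.8 ± 2.61 and 26.3 ± 3.82 CPM, and GNB3 had a log2 fold change of -0.19. Of 10 other gamma subunit genes 6 were tested, 3 of them above 0 with a median of 0.12. GNG12, with the highest mean CPM of these, had 102 ± 34.0 and 97.3 ± 7.05 CPM, on GST 3 at 141 CPM and the other GST libraries at 84.7 and 80.4 CPM. All gamma subunit counts together made up 196 ± 38.7 CPM on GST and 204 ± 12.9 CPM on GST-Ferry, and all alpha subunit counts 1049 ± 80.8 and 1468 ± 168 CPM.

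**Figure D5:**
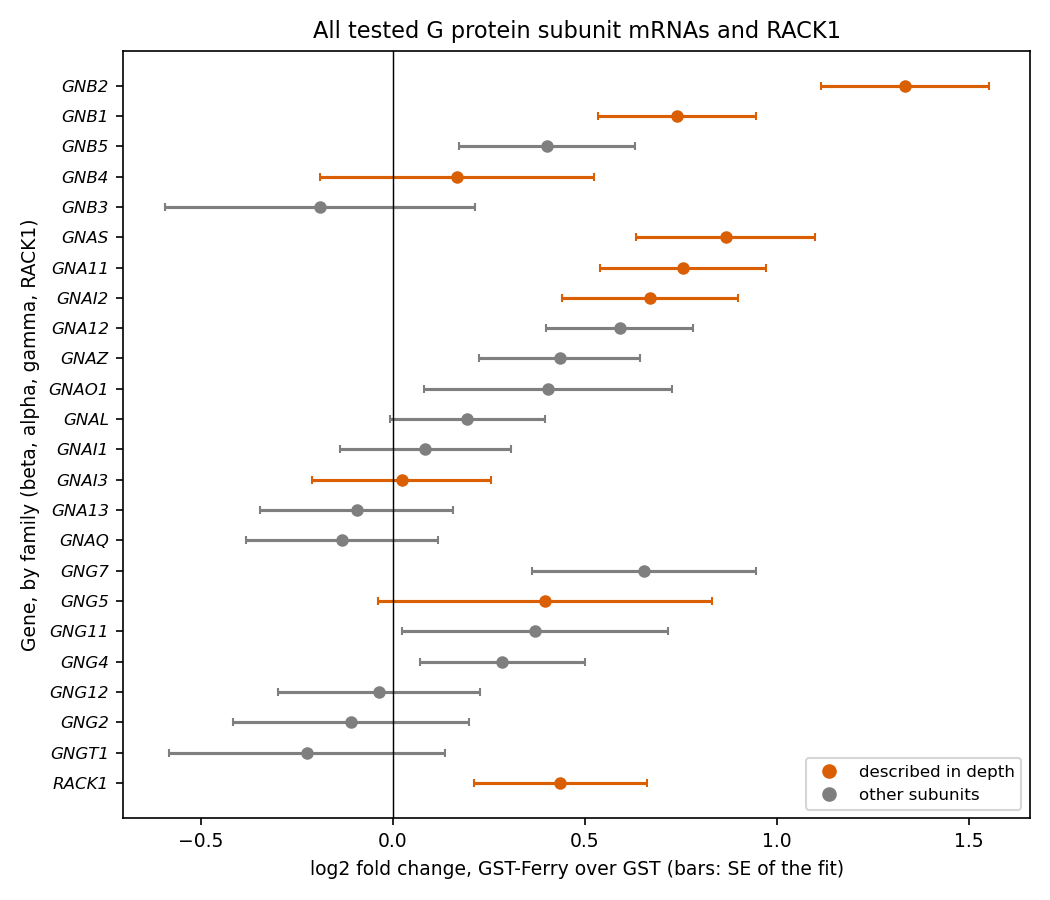
log2 fold change of GST-Ferry over GST for each tested G protein subunit gene and RACK1, by family, with bars for the SE of the fit and the 9 genes described in depth in orange. GNB2 at 1.33 is the largest, GNAS at 0.87 and GNA11 at 0.75 lead the alpha subunits, and GNGT1 at -0.22 is the lowest.

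Outside the subunits, 1 gene of the pathway was called. CCT5 encodes a subunit of the chaperonin that folds newly made beta subunits, and it rose on GST-Ferry to 950.3 ± 168 CPM, against 433 ± 66.7 CPM on GST. Its libraries had 509, 406 and 384 CPM on GST and 826, 1141 and 884 CPM on GST-Ferry, without overlap. The log2 fold change was 1.21 ± 0.22 (SE; Benjamini-Hochberg adjusted p = 0.0420, edgeR quasi-likelihood test). The CCT5 transcript had 44.6% GC, and its log2 fold change was 1.36 with the offsets. The call was lost without GST 2 (1.13), without GST-Ferry 2 (0.994) and without GST-Ferry 3 (1.22), and also with RLE size factors, library sizes alone or limma-voom (1.20, 1.13 and 1.20). Of the 14 genes for folding of the subunits and nucleotide exchange, 12 were tested, 1 was called higher and none lower, with a median of 0.37. Over all tested genes 0.592% were called higher and 0.0322% lower. A fold change above 0 was found for 11 of the 12, beside 47.8% of all tested genes. DESeq2 called 2 of the 12 higher, beside 524 higher and 177 lower of all 15546 tested genes, and limma-voom called none. An unadjusted p under 0.05 in edgeR was found for 3, all higher, beside 11.3% higher and 8.05% lower over all tested genes.

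In the other groups of the pathway edgeR and limma-voom called no gene in either direction. DESeq2 called 2 of the 53 tested genes higher, beside 524 higher and 177 lower of all 15546 tested genes. Of the 53 genes 7 had an unadjusted p under 0.05 in edgeR, 6 of them higher and 1 lower on GST-Ferry. Over all tested genes 11.3% were higher and 8.05% lower by that measure. Of the 8 enzymes that attach or process the lipid tails of the subunits, 2 had a fold change above 0 and the median was -0.24. NMT1, which attaches myristate to inhibitory alpha subunits, had 143 ± 30.8 CPM on GST and 197 ± 12.1 CPM on GST-Ferry. Of 26 RGS and GoLoco proteins, which speed GTP hydrolysis or hold the alpha subunit in its GDP form, 18 were tested and 10 were above 0. GPSM1, with the highest mean CPM of these (not scaled by length), had 65.9 ± 30.2 and 71.8 ± 5.81 CPM. Of 28 effectors 20 were tested and 11 were above 0, with a median of 0.04, and ARHGEF12, with the highest mean CPM, had 295 ± 25.9 and 262 ± 16.5 CPM. Of 9 receptor kinases and arrestins 7 were tested and 5 were above 0, with GRK6, a receptor kinase, at 79.2 ± 30.4 and 95.5 ± 2.26 CPM. Over the 109 genes of these groups together with the other subunits, 80 were tested, 48 were above 0, and the median was 0.16.

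The protein-coding genes with a profile most like that of GNB2 over the 6 libraries were TUBG1, HPS6 and TWF2. Likeness was the root mean square difference in log2 CPM after each gene was centred on its GST mean, among 10482 genes whose mean reached 10 CPM. It was 0.071 for TUBG1, which encodes gamma-tubulin, 0.084 for HPS6, and 0.088 for TWF2, an actin-binding protein, with Pearson's r of 0.995, 0.995 and 0.994. Nearest to RACK1 were RTRAF at 0.063, SSR2 at 0.063 and SLIRP at 0.074, with r of 0.979, 0.978 and 0.977.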

How the data were processed

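The authors deposited raw read counts per gene for 6 libraries. The submitters' processing notes list the GRCh38.p13 build, STAR 2.5.2b and bcl2fastq 2.19.1. The counting program, annotation release, strand setting and rule for reads with several matches are not given in the sources used here. Symbols, exons and transcripts came from GENCODE 29 (58575 of 60676 IDs had a symbol), and start windows from RefSeq GRCh38.p14.

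CPM are counts divided by the library total. edgeR 4.0.16 (R 4.3.3) was run without covariates after filterByExpr (minimum count 10, minimum total 15), with TMM factors of 0.923 to 1.10, two-sided, Benjamini-Hochberg over 15546 genes. Overlap of groups was judged on TMM-scaled CPM. Profiles used log2 CPM with a prior count of 2. GC content and length came from 1 representative transcript per gene (APPRIS principal, then longest), a choice made after the data were seen, and 99.3% of tested genes had both. Offsets were natural splines with 5 degrees of freedom for each. The procedure was tested on simulated data. Libraries of 1 bait differed beyond counting error (chi-square over degrees of freedom 4.15 to 59.7), and none was counted as a duplicate.

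The members and lists were chosen with earlier results of these data known. Named are the 10 genes, the bait subunits, the markers, up to 3 called genes per direction of each list or else its tested gene with the highest mean CPM, and the 3 genes most like GNB2 and RACK1. Alternatives were other scalings, no filter, a threshold of 0.01, DESeq2 1.42.0, limma-voom (limma 3.58.1), a replicate block, offsets, removal of the bait genes, libraries left out, and other lengths. Sequences were aligned with biopython 1.88 and figures drawn with matplotlib 3.10.9.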

Additional observations from a re-analysis of the deposited data

How the results depend on the processing

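With the settings as reported 97 genes were called in all (92 higher, 5 lower), 1 of the described genes and 1 other pathway gene. In the same order, the calls were 0, 0 and 0 at a threshold of 0.01, 11, 0 and 0 with RLE size factors, 7, 0 and 0 with library sizes alone, 744, 2 and 2 without the filter, 701, 4 and 4 with DESeq2, 14, 1 and 0 with limma-voom, 308, 1 and 1 with offsets for GC content and length, and 94, 1 and 1 without the bait genes. Without GST 3 and GST-Ferry 1 together they were 2746, 7 and 15. Leaving out 1 library gave 0 to 1259, 0 to 3 and 0 to 4, lowest without GST-Ferry 2 and highest without GST 3. Of the calls over all genes 94.8% were higher as reported, 56.6% without the filter, 74.8% with DESeq2 and 55.7% without GST 3. Without GST-Ferry 2, where edgeR called 0 genes, an unadjusted p under 0.05 was found for 910 higher genes and 794 lower ones; DESeq2 and limma-voom were run on all libraries only. At a threshold of 0.01 the counts at an unadjusted p under 0.05 were 1755 and 1251.

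With the replicate number as a block 195 genes were called in all, 1 described and 1 other, and with the block and the offsets 1212, 3 and 7. The labels do not say whether the numbers pair the libraries, and with 3 libraries per bait correlations cannot settle it. Same-numbered libraries had correlations of 0.246, 0.079 and -0.133 in their deviations from the group means, and not every library correlated best with its own number. Fold changes turned below 0 for GNAI3 with library sizes alone (-0.019), without the filter (-0.03) and without GST 1 (-0.145), GST 2 (-0.104) or GST-Ferry 2 (-0.096), for GNB4 without GST 1 (-0.076) or GST 2 (-0.149), and for GNG5 without GST-Ferry 3 (-0.2). With 1 library left out the highest values were 0.855 for GNB4 and 0.297 for GNAI3 (both without GST 3) and 0.715 for GNG5 (without GST-Ferry 1). Library sizes alone moved the median log2 fold change of all genes from -0.027 to -0.09. The cause of these changes was not tested. At these depths GNG10 could not be compared.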
